A study of Mus musculus with 6 samples.

Results

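Apolipoproteins and the receptors and transporters that handle them were followed as 9 genes in the mouse hippocampus: Apoe, Clu, Lrp1, Lrp1b, Lrp8, Vldlr, Sorl1, Abca1 and Abca7. They were chosen by symbol, and each matched 1 row of the 31838 genes in the deposited table. All 9 passed the filter on low counts, among 20428 genes tested. Polyadenylated RNA had been sequenced from hippocampus of wild type C57BL/6 mice at 4 months of age. The control group of 3 libraries had received corn oil, and the other group of 3 libraries had been given the plasticiser BBP (butyl benzyl phthalate) at a dose of 50 mg/kg/day. Libraries are named by group and replicate number, and the labels do not say whether each came from a separate animal, so every p-value refers to the spread among the libraries, which may be technical. Cognitive impairment is named in the series' title, and the question here was whether these genes of lipid transport in the brain differed between treated and control mice.

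In the brain, lipids move between cells on particles built around apolipoproteins. Astrocytes secrete apolipoprotein E (Apoe) and clusterin (Clu, also called apolipoprotein J), the transporter Abca1 loads apolipoprotein E with cholesterol and phospholipid, and neurons and glia take the particles up through receptors of the low-density lipoprotein (LDL) receptor family such as Lrp1. Lrp8 (also called ApoER2) and Vldlr belong to that family and double as receptors of Reelin, a secreted protein that guides neuronal layering and modulates synapses through the adaptor Dab1. Sorl1 is a sorting receptor that, with the retromer complex, steers the amyloid precursor protein through endosomes, and Abca7 is a lipid transporter related to Abca1. Human APOE, CLU, SORL1 and ABCA7 are known risk genes of late-onset Alzheimer's disease.

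By edgeR's quasi-likelihood test, adjusted over all genes, none of the 9 genes reached 0.05, and the largest difference of any of them was about 13% of the corn oil level. Lrp1 and Lrp8 stood higher in all BBP libraries than in any corn oil library on the scale of normalised counts, and Vldlr stood lower. Clu was high in 1 BBP library only, Abca7 in another, and Apoe hardly moved. Of the 9 log2 fold changes 8 were positive, against 52.4% of all genes tested. That count was 5 without BBP library 2, where the values of Apoe, Clu and Lrp1b turned negative.

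The promoters of Lrp1, Lrp8 and Vldlr are shown because these are the members whose groups did not overlap. RefSeq promoters (GRCm38.p6, 250 bases before to 50 after a gene's start) were found for 7 of the 9 members, and for the members with several starts the one with the most CpG dinucleotides is printed. Each run reads 5′ to 3′ on the gene's strand. Capitals mark exact matches, on either strand, to any of 5 motifs. These were the GC box, spelled GGGCGG, and the CCAAT box, the TATA box, spelled TATAAA, a motif of nuclear receptors, spelled AGGTCA, and an E-box, spelled CACGTG.
Lrp1, minus strand, chr10:127621099-127621398: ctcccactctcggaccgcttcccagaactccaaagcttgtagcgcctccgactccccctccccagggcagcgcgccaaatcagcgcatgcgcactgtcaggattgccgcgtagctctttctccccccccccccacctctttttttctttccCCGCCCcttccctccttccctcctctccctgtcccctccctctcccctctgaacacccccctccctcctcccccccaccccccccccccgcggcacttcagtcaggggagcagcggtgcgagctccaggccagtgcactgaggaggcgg
Lrp8, plus strand, chr4:107802635-107802934: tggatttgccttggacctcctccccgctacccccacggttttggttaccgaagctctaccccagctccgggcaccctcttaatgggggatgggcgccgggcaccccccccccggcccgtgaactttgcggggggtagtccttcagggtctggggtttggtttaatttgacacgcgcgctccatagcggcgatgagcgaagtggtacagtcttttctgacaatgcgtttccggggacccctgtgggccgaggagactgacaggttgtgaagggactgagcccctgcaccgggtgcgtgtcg
Vldlr, plus strand, chr19:27216770-27217069: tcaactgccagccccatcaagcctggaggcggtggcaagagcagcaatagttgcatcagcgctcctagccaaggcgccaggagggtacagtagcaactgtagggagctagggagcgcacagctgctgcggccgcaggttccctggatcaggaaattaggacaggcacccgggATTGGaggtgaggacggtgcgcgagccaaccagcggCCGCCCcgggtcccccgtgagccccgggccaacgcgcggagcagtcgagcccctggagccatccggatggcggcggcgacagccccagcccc

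The GC box was found in the Lrp1 promoter, on the reverse strand with its first base at -99 from the start, and in the Vldlr promoter, on the reverse strand at -42. The Vldlr promoter also held CCAAT on the reverse strand at -78. None of the 5 motifs was found in these 300 bases of Lrp8. Over all 32851 mouse promoters in that table, 35.7% held the GC box, 37.4% CCAAT, 13.6% the TATA box, 16.3% the nuclear receptor motif and 7.2% the E-box. The 3 promoters held 16, 21 and 23 CpG dinucleotides in the order printed, a number that the choice among starts favoured. The other Lrp8 promoters held 5 and 4 and the other Vldlr promoter 8. The Lrp8 promoter with 4 CpG dinucleotides held the nuclear receptor motif, as spelled above, at -229. These matches describe the sequence only, and no binding or activity was measured.

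The levels of the 9 genes, in FPKM (fragments scaled by transcript length and library depth), spanned a wide range. Apoe was the most abundant, at a mean of 539 FPKM over the 6 libraries and rank 37 among all genes in the table, followed by Clu at 227 FPKM and rank 107. Next came Sorl1 at 21.2, Lrp1 at 16.9, Vldlr at 5.71, Lrp8 at 4.93, Abca7 at 3.11, Abca1 at 2.18 and Lrp1b at 1.29 FPKM. The ranges over libraries overlapped for 2 neighbours in this order, Sorl1 with Lrp1 and Vldlr with Lrp8, and did not overlap for the other neighbours. Clu, the less abundant of the apolipoproteins among the 9 genes, thus stood 10.7-fold above Sorl1, the most abundant receptor among them. The depth behind these levels was high, from 1295 deposited counts for Abca7 in BBP library 2 to 91881 for Apoe in corn oil library 3, where about 4 counts are assumed to stand for 1 fragment.

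**Figure D1:**
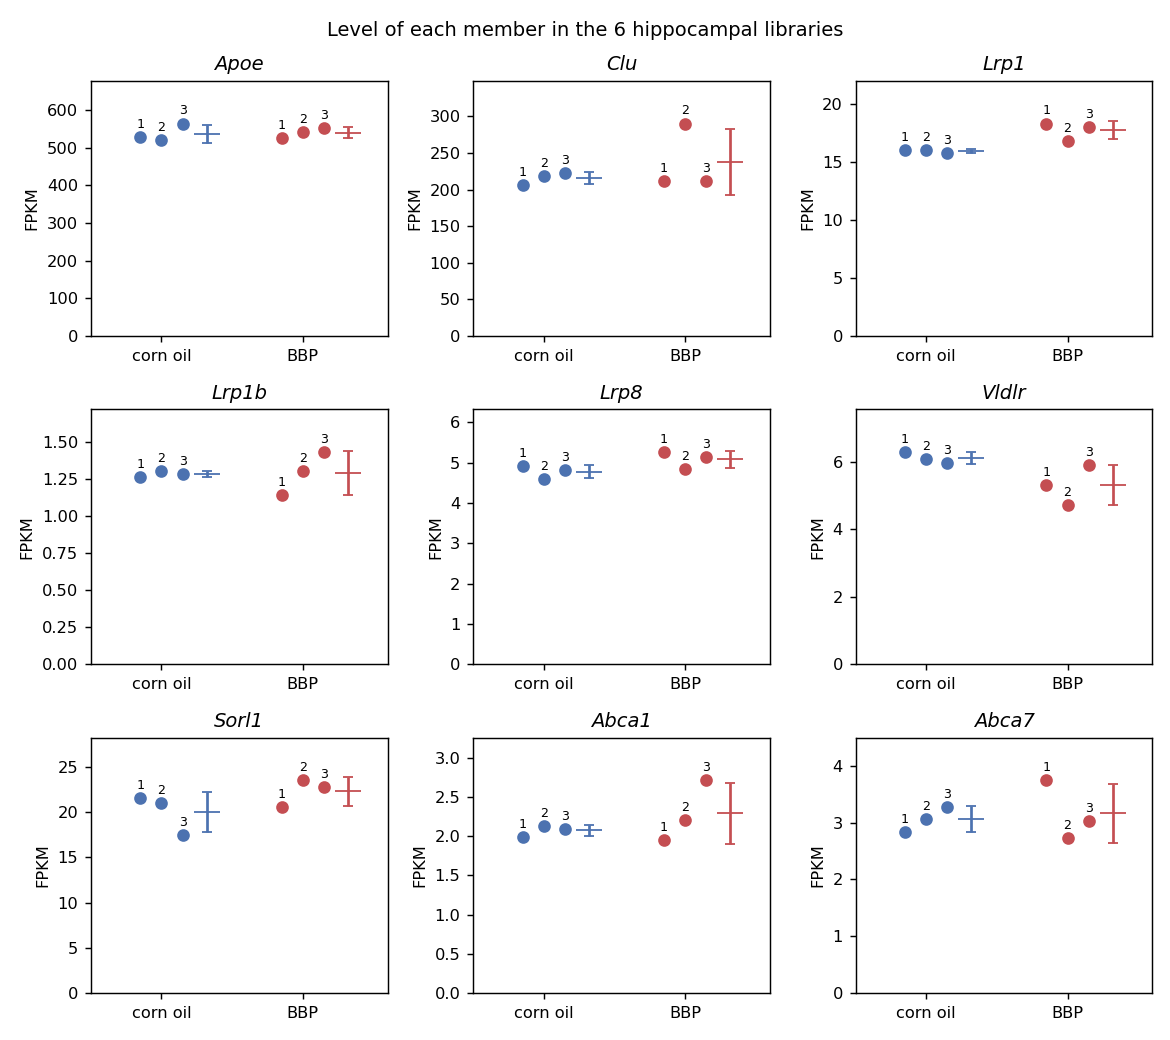
FPKM of each of the 9 genes (vertical axes, starting at 0) in the 3 corn oil libraries (blue) and the 3 BBP libraries (red), numbered by replicate, with the group mean and SD at the right of each group. Lrp1 lies higher and Vldlr lower in all BBP libraries, and Clu stands out in BBP library 2 at 290 FPKM.

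Apoe, on chromosome 7 (mm10, 19696109 to 19699188, minus strand), measured 528, 520 and 565 FPKM in corn oil libraries 1 to 3 and 525, 543 and 553 FPKM in BBP libraries 1 to 3. The groups overlapped, with a corn oil library highest and another corn oil library lowest. The group means were 538 ± 23.8 (SD, n = 3) and 540 ± 14.3 FPKM. In edgeR the log2 fold change, BBP against corn oil, was 0.03 ± 0.09 (SE), and its 95% interval ran from 0.890-fold to 1.17-fold. A change of the Apoe transcript by more than about 17% up or 11% down thus lay outside the interval.

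Clu, on chromosome 14 (65968483 to 65981547, plus strand), measured 206, 219 and 222 FPKM in corn oil and 212, 290 and 212 FPKM in BBP. BBP library 2 alone was high, and the other BBP libraries lay within the corn oil range. The means were 216 ± 8.69 and 238 ± 45.1 FPKM (SD, n = 3), and the log2 fold change was 0.18 ± 0.16 (SE). Without BBP library 2 it was -0.04. The ratio of Clu to Apoe within each library was 0.390, 0.421 and 0.394 in corn oil and 0.404, 0.535 and 0.384 in BBP, so that BBP library 2 stood apart in this measure too, which does not depend on library size.

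Astrocyte markers bear on both apolipoproteins, since astrocytes are their main source. All 10 markers on the list (Aldoc, Gfap, Aqp4, Slc1a2, Slc1a3, Gja1, S100b, Aldh1l1, Sox9 and Glul) were above 0 in every library, and all 10 had positive log2 fold changes, with a median of 0.14. Their summed level was 794 to 844 FPKM in corn oil and 824 to 903 FPKM in BBP. Relative to the corn oil mean, the log2 level of Apoe less the mean log2 level of these markers was 0.04, -0.12 and 0.08 in corn oil and -0.14, -0.14 and -0.08 in BBP. The BBP values of this relative level overlapped with the corn oil ones. For Clu the same measure was 0.28 in BBP library 2 and between -0.14 and 0.05 in the other libraries. In tissue RNA, fewer cells of a type and less RNA per cell cannot be told apart.

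Lrp1, a large endocytic receptor of neurons and glia, lies on chromosome 10 (127538161 to 127621148, minus strand). Its levels were 16.1, 16.1 and 15.8 FPKM in corn oil and 18.4, 16.9 and 18.1 FPKM in BBP. Every BBP library was above every corn oil library, and the corn oil libraries lay close together. The means were 16.0 ± 0.165 and 17.8 ± 0.780 FPKM (SD, n = 3). The log2 fold change was 0.17 ± 0.07 (SE), or 12.8%, with an unadjusted p of 0.0450 and an adjusted p of 0.953 in edgeR, which is not past the threshold. It was the only member with an unadjusted p under 0.05, a level reached by 3.35% of all genes tested (1.98% higher and 1.37% lower in BBP). Between 0.14 and 0.19 in all 14 other settings, the log2 fold change of Lrp1 kept its direction, with unadjusted p from 0.0280 to 0.136. The astrocyte marker medians stood above the corn oil mean in the BBP libraries as well, at 0.18, 0.19 and 0.10, beside 0.19, 0.18 and 0.15 for Lrp1. The endothelial and mural medians stood at 0.28, 0.19 and 0.07 there, and the neuron medians at 0.02, 0.06 and -0.04. Relative to the mean of the astrocyte markers, Lrp1 was at 0.07, -0.06 and -0.01 in corn oil and at 0.09, -0.08 and 0.06 in BBP. On this relative scale the groups overlapped and the difference was 0.02, and the part of cell make-up in the difference of Lrp1 was not tested.

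Lrp1b, a close relative of Lrp1, extends over 2058 kb of chromosome 2 (40595246 to 42653624, minus strand). It was at 1.27, 1.31 and 1.29 FPKM in corn oil and at 1.14, 1.31 and 1.44 FPKM in BBP. The BBP libraries lay on both sides of the narrow corn oil range. The means were 1.29 ± 0.0217 and 1.30 ± 0.147 FPKM (SD, n = 3), and the log2 fold change was 0.03 ± 0.11 (SE). BBP library 1, which is lowest for Lrp1b, was highest for Lrp1. The ratio of Lrp1b to Lrp1 was 0.0789 to 0.0816 in corn oil, and 0.0622, 0.0775 and 0.0795 in BBP libraries 1, 2 and 3. Its difference on the log2 scale was -0.15 (exact permutation test, two-sided p = 0.2).

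Lrp8, on chromosome 4 (107801869 to 107876840, plus strand), had 4.92, 4.60 and 4.81 FPKM in corn oil and 5.27, 4.85 and 5.15 FPKM in BBP. On this scale BBP library 2 lay between the corn oil libraries. In CPM, the counts scaled to library size, after TMM normalisation the corn oil libraries had 69.2, 64.7 and 67.2 and the BBP libraries 73.6, 72.9 and 70.9, so that the groups did not overlap. The scales differ most in BBP library 2, whose TMM factor of 0.948 was below the 1.01 of the others. Its log2 fold change was 0.11 ± 0.07 (SE, unadjusted p = 0.167 and adjusted p = 0.953 in edgeR).

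Vldlr, the other Reelin receptor, on chromosome 19 (27216484 to 27254231, plus strand), had 6.29, 6.10 and 5.96 FPKM in corn oil and 5.30, 4.72 and 5.90 FPKM in BBP. All BBP libraries were below all corn oil libraries, with BBP library 3 only just below. The means were 6.12 ± 0.166 and 5.31 ± 0.592 FPKM (SD, n = 3). For Vldlr the log2 fold change was -0.19 ± 0.08 (SE), or -12.1%, with an unadjusted p of 0.0572 and an adjusted p of 0.953 in edgeR. Its 95% interval reached from -0.38 to 0.01. Over the 14 other settings the log2 fold change ran from -0.24 to -0.14 and stayed negative in each. All 5 CA2 and CA3 pyramidal neuron markers also had negative log2 fold changes, with a median of -0.36. Their medians in corn oil libraries 1 to 3 were 0.13, 0.16 and -0.27, beside 0.04, -0.001 and -0.04 for Vldlr. In BBP libraries 1 to 3 the medians were -0.91, -0.19 and -0.08, beside -0.21, -0.28 and -0.08 for Vldlr. Their summed level was 65.4 to 83.4 FPKM in corn oil and 40.8 to 74.7 FPKM in BBP. Of these markers, Rgs14 and Cpne4 were highest in BBP library 2, where Vldlr was lowest. Bok, Iyd and Amigo2 were highest in a corn oil library. Relative to the mean of the 9 neuron markers, Vldlr was at -0.003, 0.007 and -0.005 in corn oil. In BBP this relative level was -0.215, -0.319 and -0.044. The part of cell make-up in the lower Vldlr level was not tested.

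In all, normalised counts did not overlap between the groups for 3 of the 9 members (Lrp1 and Lrp8 higher, Vldlr lower), against 10.4% of all genes tested (5.1% higher and 5.32% lower). In FPKM this held for 2 of 9 (Lrp1 higher, Vldlr lower), against 9.65% (4.4% higher and 5.25% lower). With 9 genes these counts are a description.

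The 2 Reelin receptors were set against each other within each library. The ratio of Lrp8 to Vldlr was 0.782, 0.754 and 0.807 in corn oil libraries and 0.993, 1.03 and 0.872 in BBP libraries. No BBP library overlapped with the corn oil ones. The corn oil log2 ratios averaged -0.36 ± 0.05 (SD, n = 3) and those of BBP -0.06 ± 0.13, a difference of 0.30. An exact permutation test gave a two-sided p of 0.1, the smallest that 3 against 3 libraries allow, so the design cannot reach 0.05, and the value adjusted over the 4 ratios examined was 0.4. Leaving out each library in turn kept the difference between 0.25 and 0.37.

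**Figure D2:**
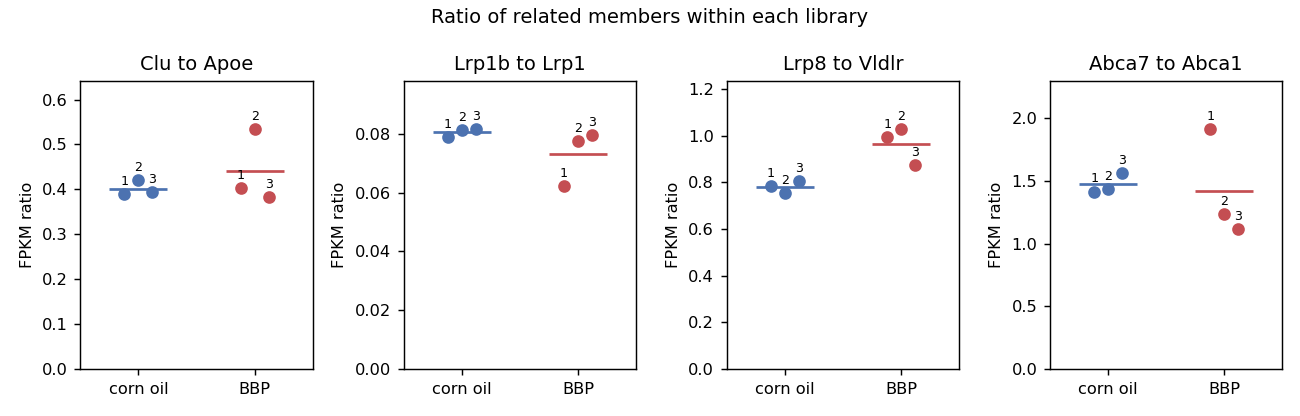
FPKM ratio of related members within each library (vertical axes, starting at 0), for corn oil (blue) and BBP (red), numbered by replicate, with lines at the group means. The ratio of Lrp8 to Vldlr lies at 0.754 to 0.807 in corn oil and at 0.872 to 1.03 in BBP, while the groups overlap for Clu to Apoe, for Lrp1b to Lrp1 and for Abca7 to Abca1.

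Sorl1, on chromosome 9 (41964720 to 42124297, minus strand), measured 21.6, 21.1 and 17.5 FPKM in corn oil and 20.5, 23.5 and 22.8 FPKM in BBP. The groups overlapped, and corn oil library 3 was the lowest of the 6. The log2 fold change was 0.18 ± 0.12 (SE, unadjusted p = 0.166 and adjusted p = 0.953 in edgeR). It was 0.09 without corn oil library 3 and 0.25 without BBP library 1. The retromer genes that act with Sorl1 are given with the other pathway genes.

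Abca1, on chromosome 4 (53030787 to 53159895, minus strand), had 2.00, 2.13 and 2.099 FPKM in corn oil and 1.96, 2.21 and 2.71 FPKM in BBP. BBP library 3 was the highest and BBP library 1 the lowest. The log2 fold change was 0.16 ± 0.13 (SE, adjusted p = 0.953 in edgeR). It was 0.28 without BBP library 1 (unadjusted p = 0.0310, adjusted p = 0.700) and 0.05 without BBP library 3, so the spread among the BBP libraries was as large as the difference between the groups.

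Abca7, on chromosome 10 (79996494 to 80015572, plus strand), had 2.83, 3.07 and 3.28 FPKM in corn oil and 3.74, 2.73 and 3.03 FPKM in BBP. BBP library 1 was the highest and BBP library 2 the lowest. Its log2 fold change of 0.07 ± 0.13 (SE) became -0.05 without BBP library 1. Abca1 and Abca7 were thus placed in opposite order in BBP libraries 1 and 3. Their ratio, Abca7 to Abca1, was 1.42, 1.44 and 1.56 in corn oil and 1.92, 1.24 and 1.12 in BBP (exact permutation test of the log2 ratio, two-sided p = 0.8).

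**Figure D3:**
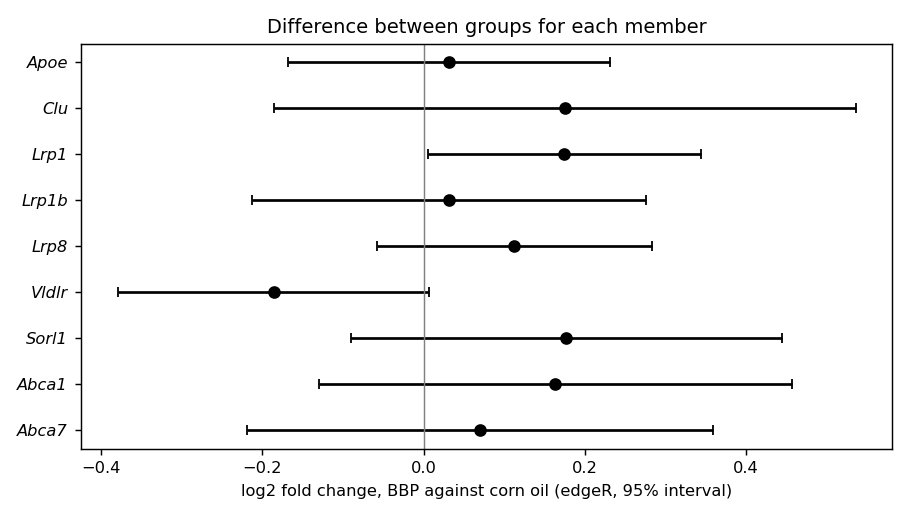
Log2 fold change of each of the 9 genes, BBP against corn oil, with its 95% interval from edgeR (horizontal axis), and a grey line at no difference. The interval of Lrp1, from 0.005 to 0.34, lies just above 0, and that of every other member includes 0.

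The libraries differed in the levels of regional and cell type markers. The part of these differences in the member levels was not tested. Total deposited counts were 62477604 to 68422361 per library, with 25304 to 25931 genes above 0. In BBP library 1 the median of the 9 striatum markers stood 1.62 above the corn oil mean on the log2 scale and that of the 7 isocortex markers 1.22 above, while the 4 dentate granule neuron markers stood at -1.03 and the 5 CA2 and CA3 markers at -0.91. All hippocampal field markers were above 0 in every library. In the other 5 libraries the striatum medians ran from -0.37 to 0.41. Oligodendrocyte medians were 0.49 and 0.51 in BBP libraries 1 and 2 and -0.06 in BBP library 3. All 6 choroid plexus markers had negative log2 fold changes, with a median of -0.415. Their medians by library were -0.71, -0.04 and 0.67 in corn oil and -1.07, 0.11 and -0.78 in BBP. The choroid plexus gene Ttr had 81.4, 115 and 366 FPKM in corn oil and 51.5, 44.5 and 58.5 FPKM in BBP (adjusted p = 0.953 in edgeR). Summed over 9 striatum markers, the level was 185 FPKM in BBP library 1, 49.2 and 44.5 FPKM in BBP libraries 2 and 3, and 45.0 to 91.0 FPKM in corn oil.

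BBP library 1 was the library with the highest Abca7, Lrp1 and Lrp8 and the lowest Lrp1b and Abca1. Without it, the log2 fold changes were 0.17 for Lrp1, 0.10 for Lrp8 and -0.17 for Vldlr, close to the values with it. Marker lists were shifted in the other BBP libraries too, as given for Lrp1 and Vldlr, and their part in these differences was not tested. Clu was highest in BBP library 2, at 0.53 above the corn oil mean on the log2 scale, where the oligodendrocyte median stood at 0.51. In BBP library 1 that median stood at 0.49 and Clu at -0.03. The part of cell make-up in the Clu value of BBP library 2 was not tested.

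**Figure D4:**
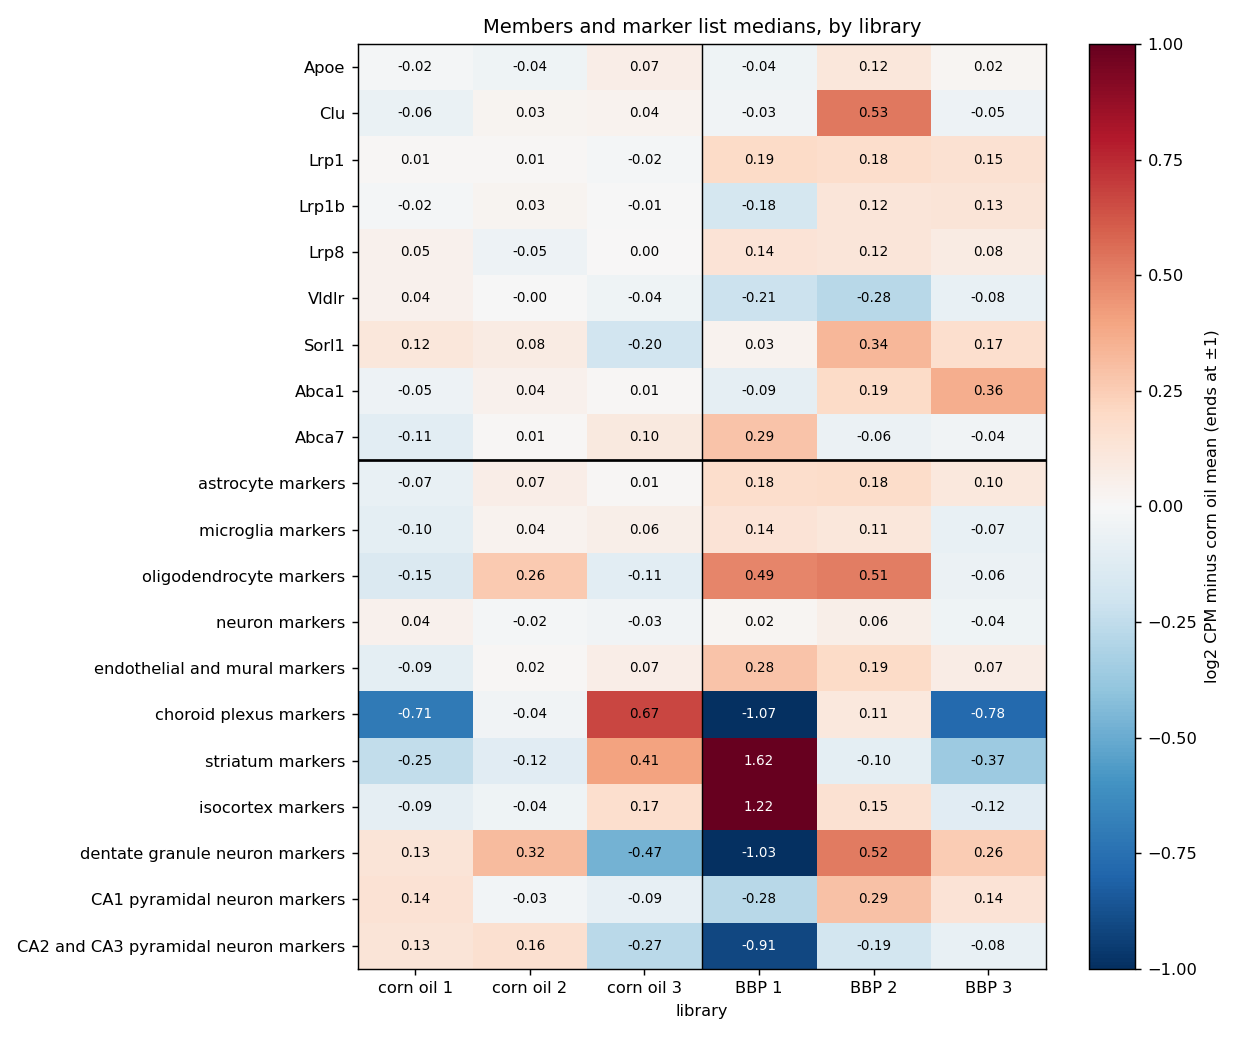
Log2 CPM minus the corn oil mean for the 9 genes (upper rows) and for the median of each marker list (lower rows), by library (columns), with red for higher and blue for lower. Clu stands at 0.53 in BBP library 2 and Abca7 at 0.29 in BBP library 1, where striatum markers stand at 1.62. Lrp1 lies at 0.15 to 0.19 in the BBP libraries.

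Each member was compared with 132 candidates, namely the other members and the listed pathway and marker genes with a mean of at least 1 FPKM, by the correlation of log2 CPM over the 6 libraries, as a measure of likeness with no test. The profile of Lrp1 was most like that of Lrp4, another LDL receptor family member (Pearson r = 0.955), and Apod (0.908). Lrp8 was most like Lrp1 (0.874) and Pdgfrb, a mural cell gene (0.823). Sorl1 was most like Syt1, a synaptic vesicle gene (0.939), and its relative Sort1 (0.914). Lrp1b was most like Map2, a neuronal microtubule gene (0.955), and Src (0.952). Clu was most like the retromer gene Vps26a (0.951) and Lcat, which esterifies cholesterol on lipoproteins (0.929), and Lcat too was highest in BBP library 2, at 23.8 FPKM against 13.8 to 18.3 FPKM elsewhere. Abca7 was most like the striatal dopamine receptor gene Drd1 and the microglial gene Aif1 (0.978 for each). Apoe was most like Wfs1, a CA1 marker (0.915), and Abcg4 (0.817). Vldlr was most like Bok, a CA2 and CA3 marker (0.927), and Snx17, an adaptor of LDL receptor family tails (0.816). Abca1 was most like Lrp1b (0.866) and Src (0.841). A marker named here stands for itself and not for its list. Fibcd1, also a CA1 marker, was lowest among the corn oil libraries in library 3, where Apoe was highest among them. Rgs14 and Cpne4, also CA2 and CA3 markers, were highest in BBP library 2, where Vldlr was lowest. The 6 points of each correlation share their library preparation and regional make-up. They pool both groups, so genes that differ between the groups in the same direction also correlate. The 2 genes named for each member are the highest of 132 candidates.

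Other genes of lipoprotein handling were taken from 8 lists with 70 symbols, of which 66 were in the table and 62 were tested. None passed an adjusted p of 0.05 in edgeR, 35 had positive and 27 negative log2 fold changes, and the median was 0.03, against 0.01 over all genes tested. An unadjusted p under 0.05 was reached by 3 of them, Apod and Lrp4 higher and Cd36 lower, against 3.35% of all genes tested. That count was 1 without corn oil library 3 and 6 without BBP library 1. In FPKM, 4 of the 62 genes stood higher and 1 lower in all BBP libraries than in any corn oil library. The shares over all genes tested were 4.4% and 5.25%. Normalised counts gave 5 higher and 1 lower, against 5.1% and 5.32%. Over all genes edgeR called 0 of 20428, or 0%, with 685 at an unadjusted p under 0.05, and DESeq2 called 3, none of which is a member or on these lists.

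Apod encodes a lipid-binding apolipoprotein of the lipocalin family that oligodendrocytes secrete. Its levels were 43.6, 49.9 and 41.0 FPKM in corn oil and 55.9, 59.7 and 59.7 FPKM in BBP. All BBP libraries were above all corn oil libraries. The oligodendrocyte marker medians were -0.15, 0.26 and -0.11 in corn oil libraries 1 to 3 and 0.49, 0.51 and -0.06 in BBP libraries 1 to 3. The part of cell make-up in the Apod difference was not tested. The log2 fold change was 0.41 ± 0.10 (SE, unadjusted p = 0.00396 and adjusted p = 0.953 in edgeR). The 5 other apolipoprotein genes tested (Apoa1, Apoa2, Apoc1, Apoc3 and Apoh) had group means under 1 FPKM and negative log2 fold changes, none with an unadjusted p under 0.05.

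Lrp4, a receptor of the LDL receptor family known for organising the neuromuscular synapse, had 1.57, 1.74 and 1.495 FPKM in corn oil and 2.03, 1.85 and 1.98 FPKM in BBP. The groups did not overlap. Its log2 fold change was 0.31 ± 0.10 (SE, unadjusted p = 0.0170 and adjusted p = 0.953 in edgeR). Of the 13 LDL receptor and Vps10 family genes listed outside the 9 members, Lrp4 included, 9 had positive values.

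Reln, the ligand of Lrp8 and Vldlr, stood at 2.28, 1.82 and 2.28 FPKM in corn oil and 1.94, 1.71 and 1.83 FPKM in BBP. The groups overlapped through corn oil library 2. Its log2 fold change of -0.20 ± 0.11 (SE) had an unadjusted p of 0.0990 and an adjusted p of 0.953 in edgeR. The adaptor Dab1, which both receptors recruit, was at 12.3 ± 0.808 and 11.98 ± 1.89 FPKM (SD, n = 3). The 7 genes listed for Reelin signalling, Reln included, had a median log2 fold change of 0.01.

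Abca2, an endosomal lipid transporter abundant in oligodendrocytes, had 22.8, 24.3 and 22.7 FPKM in corn oil and 25.03, 26.7 and 26.1 FPKM in BBP. Its groups did not overlap, and its log2 fold change was 0.18 ± 0.09 (SE, unadjusted p = 0.0698 and adjusted p = 0.953 in edgeR). All 10 oligodendrocyte markers had positive log2 fold changes, with a median of 0.28. The part of cell make-up in the Abca2 difference was not tested. Of 8 further ABC lipid transporters 5 had positive values, with a median of 0.04. Abcg1, which exports cholesterol beside Abca1, was at 7.502 ± 0.353 and 7.77 ± 0.131 FPKM (SD, n = 3).

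Cd36, a scavenger receptor and fatty acid transporter, was at a low level, with 70, 91 and 101 deposited counts in corn oil and 36, 17 and 69 in BBP. The highest BBP library was just below the lowest corn oil library. Its log2 fold change was -1.09 ± 0.45 (SE, unadjusted p = 0.0394 and adjusted p = 0.953 in edgeR). Among 9 tested lipoprotein enzymes and scavenger receptors 5 had positive and 4 negative values.

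None of the 6 regulators of cholesterol export and synthesis had an unadjusted p under 0.05. Liver X receptor genes Nr1h2 and Nr1h3, which switch on Abca1 and Apoe, had log2 fold changes of 0.09 ± 0.15 and 0.12 ± 0.29 (SE), and the 95% interval of Nr1h3 ran from 0.679-fold to 1.73-fold. Rxrb, a partner of nuclear receptors, had -0.15 ± 0.09 (SE), the smallest unadjusted p on that list at 0.124. Of the retromer genes, Vps26a had 0.13 ± 0.09 (SE) with 17.6, 18.2 and 18.0 FPKM in corn oil and 18.4, 20.4 and 19.1 FPKM in BBP, while Vps35, the core subunit, had 0.00 ± 0.08 (SE). Among receptor chaperones and adaptors, Dab2, an endocytic adaptor, had the smallest p, with 0.21 ± 0.16 (SE), and Lrpap1, the chaperone that keeps LDL receptor family members free of ligand, had -0.06 ± 0.08 (SE).

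**Figure D5:**
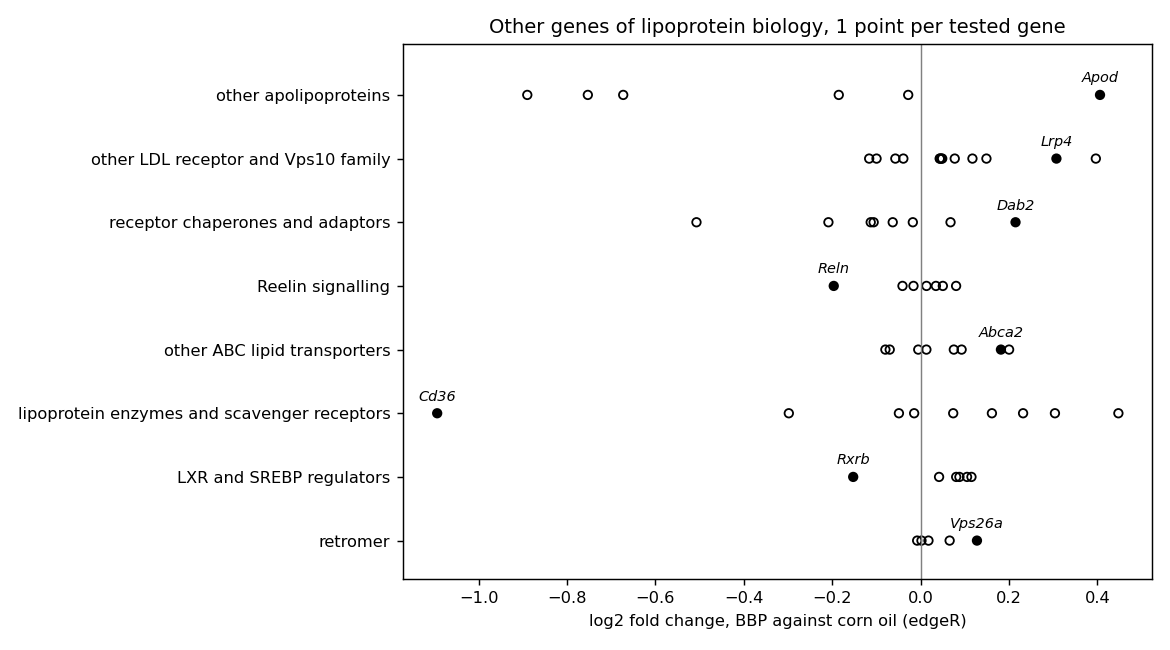
Log2 fold change, BBP against corn oil, of 62 tested genes in 8 lists (1 row per list, 1 point per gene), with the gene of smallest p in each list filled and named. Apod at 0.41, Lrp4 at 0.31 and Cd36 at -1.09 are the genes with an unadjusted p under 0.05, and most other points lie close to 0.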

How the data were processed

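Polyadenylated RNA of 6 mouse hippocampus libraries was sequenced as strand-marked (dUTP) paired-end libraries with molecular identifiers, per the labels' protocols. Tools named in the submitters' processing notes, without their role, were HISAT2 2.2.1, StringTie 2.1.6, cutadapt 1.9, UMI-tools, edgeR and DESeq2, and the build was mm10. The deposited table holds estimated counts (whole numbers, about 4 of which were assumed to stand for 1 fragment) and FPKM, per the file headers. How the authors counted, and on which strand, is not given in the sources used here. In GENCODE M21, Apoe, Clu, Vldlr, Abca1 and Abca7 overlap no other gene, and the overlapping genes of the other members that have a value here average at most 2.00 FPKM (Gm13461, a pseudogene within Lrp1b and outside its exons). The deposited and GENCODE coordinates agree for 8 of 9 members, all but Lrp8.

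The deposited estimated counts entered a quasi-likelihood fit in edgeR 4.0.16 (R 4.3.3) with TMM factors, the filterByExpr filter and treatment alone in the design, and p-values were adjusted by Benjamini-Hochberg over all genes tested. Standard errors were derived from the size of the log2 fold change and its F statistic. FPKM are given as mean ± SD of 3 libraries. Log2 CPM use a prior count of 2. Ratios of FPKM were tested with exact permutation tests. Alternatives were DESeq2 1.42.0, limma 3.58.1 on log2(FPKM + 1) or log2(FPKM + 0.1), other filters and size factors, counts divided by 4, a replicate block, and fits without each library. The fits were also run on simulated data, and no statement here rests on the outcome. Named were the 9 members, the gene of smallest p on each pathway list, and the 2 nearest profiles of each member, and a few further pathway genes (Dab1, Abcg1, Nr1h2, Nr1h3, Vps35, Lrpap1 and 5 apolipoproteins) were named after their values were seen. The members and lists were chosen with earlier results of these data known.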

Additional observations from a re-analysis of the deposited data

How the results depend on the processing

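No member passed an adjusted p of 0.05 in any of 14 other settings. Lrp1, Lrp8, Sorl1 and Abca1 stayed positive and Vldlr negative in all of them. Leaving out single libraries, the log2 fold change ran from -0.012 to 0.068 for Apoe, from -0.040 to 0.28 for Clu, from -0.020 to 0.13 for Lrp1b and from -0.051 to 0.13 for Abca7. It was negative for Apoe, Clu and Lrp1b (-0.016) without BBP library 2, for Lrp1b without BBP library 3 and for Abca7 without BBP library 1. Without single libraries 5 to 8 members were positive, the 5 without BBP library 2. The log2 ratio of Clu to Apoe, 0.12 with all libraries, ran from -0.028 (without BBP library 2) to 0.21, and that of Abca7 to Abca1, -0.09 with all libraries, from -0.32 to 0.066 (without BBP library 3). The cause was not tested. Over all genes, 0 passed in edgeR, 3 in DESeq2 (Vcp-rs, Gm2004 and Gm2274), and 0 to 3 without single libraries, the 3 without BBP library 1 and 1 without corn oil library 2. At an unadjusted p under 0.05, 685 genes (405 higher, 280 lower) became 396 (147 higher, 249 lower) and 392 with limma at pseudocounts of 1 and 0.1, and 1068 without a filter on FPKM. That count was 393 to 1530 without single libraries (393 without corn oil library 1, 1475 without BBP library 1, 1530 without BBP library 3). Among pathway genes, 3 became 1 in both filtered limma fits and 1 to 6 without single libraries. Same-numbered libraries deviated from their group means with correlations of -0.08, 0.08 and -0.10, so the numbers were not treated as pairs. With a replicate block the log2 fold change was 0.17 for Lrp1 and -0.19 for Vldlr, the adjusted p of each being 1, and the log2 ratio of Lrp8 to Vldlr was 0.30 (exact sign-flip test, p = 0.25, the smallest 3 pairs allow). The block called 0 genes, with 494 at an unadjusted p under 0.05, and changed no call. Libraries of different numbers reached a correlation of 0.15. The 95% intervals of the members reached at their widest from 0.769-fold (Vldlr) to 1.45-fold (Clu), and differences within them are not resolved by these libraries.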
